A study of Homo sapiens with 2 samples.

Results

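The family described here is that of EMP1 and its relatives with a 4-transmembrane fold: EMP1, EMP2, EMP3, PMP22, LHFPL6 and LHFPL2. Its members were taken as every probe set that the platform annotation assigns to 1 of these 6 genes alone. This gave 14 probe sets for 5 of the 6 genes, out of 41091 probe sets assigned to a single gene and 19775 such genes. No probe set was named for PMP22 in the annotation used, and PMP22 was not analysed here. EMP1 and LHFPL6 were selected on their log2 ratios between these same 2 arrays, so their values are descriptions and support nothing. The values come from U87 cells, an established human glioblastoma line, transfected at 50 nM with control siRNA or with HOXD9 siRNA-2, a small interfering RNA directed against the homeobox gene HOXD9. The paper's methods describe the control as a non-silencing siRNA. Both groups received the same transfection reagent, Lipofectamine RNAiMAX, and RNA was taken on Day 2. One Affymetrix U133 Plus 2.0 array was hybridized per condition, so there is no replicate, no SD between samples and no test between conditions, and 1 HOXD9 siRNA on 1 cell line limits what the arrays represent. A probe set is a group of short probes that reads 1 transcript region, and the deposited value is 1 linear signal intensity per probe set and array. Lower signal in a bulk culture can reflect fewer cells that carry a transcript or less transcript per cell, which cannot be told apart here.

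The targeted gene HOXD9 was dim, 1 probe set reading 19.7 in the control and 5.58 in the silenced sample, and the other 9.33 and 11.4. Probe sets for Bacillus subtilis transcripts, taken here as background and called bacterial controls, read up to 11.4 in the control and 18.4 with HOXD9 siRNA-2. As 3 of the 4 HOXD9 signals lay under 18.4, the arrays hardly check the silencing, and silenced cells below means cells labelled as transfected with HOXD9 siRNA-2. The 3 probe sets of GAPDH had log2 ratios of -0.03 to -0.02, or 0.27 to 0.28 after each array was centered on its own median. Centering added 0.30 to the log2 ratio of every probe set. For the shares and medians over all genes, the brightest probe set was picked again after centering, and for some genes it changed. Values after centering are given for the family where they change a direction or a call, and for only some other genes. Elsewhere a small negative log2 ratio can turn positive after centering, and a fall just past 2-fold can drop short of it.

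PMP22 is the peripheral myelin protein of Schwann cells, and changes in its gene dosage cause inherited demyelinating neuropathies. EMP1, EMP2 and EMP3, the epithelial membrane proteins, are its closest paralogs and are small glycoproteins of the plasma membrane that influence adhesion, membrane traffic and cell growth. The LHFPL proteins, named after the lipoma HMGIC fusion partner, belong to the same superfamily as the claudins of tight junctions and the gamma subunits of calcium channels. They are a different family from the tetraspanins such as CD9 and CD63, which share the number of membrane passes but not the fold.

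The promoters of the EMP genes are shown because EMP1 was more than 2-fold lower after HOXD9 silencing and EMP2 and EMP3 were not. Each window is the 250 bases before the RefSeq transcription start on GRCh38.p14, written 5′ to 3′ on the strand of the gene, with CG dinucleotides in capitals. The EMP1 window is chr12:13196476-13196725 (plus strand), the EMP2 window chr16:10580599-10580848 (minus strand) and the EMP3 window chr19:48325302-48325551 (plus strand, the first of 2 starts).
EMP1: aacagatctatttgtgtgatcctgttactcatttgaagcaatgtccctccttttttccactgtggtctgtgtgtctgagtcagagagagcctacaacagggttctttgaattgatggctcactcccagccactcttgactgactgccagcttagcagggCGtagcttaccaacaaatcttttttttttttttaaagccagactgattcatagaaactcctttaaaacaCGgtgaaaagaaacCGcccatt
EMP2: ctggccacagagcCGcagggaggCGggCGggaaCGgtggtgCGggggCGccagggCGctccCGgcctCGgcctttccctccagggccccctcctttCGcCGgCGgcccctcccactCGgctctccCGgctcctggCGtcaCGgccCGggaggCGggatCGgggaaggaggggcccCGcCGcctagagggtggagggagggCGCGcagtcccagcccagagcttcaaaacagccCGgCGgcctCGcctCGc
EMP3: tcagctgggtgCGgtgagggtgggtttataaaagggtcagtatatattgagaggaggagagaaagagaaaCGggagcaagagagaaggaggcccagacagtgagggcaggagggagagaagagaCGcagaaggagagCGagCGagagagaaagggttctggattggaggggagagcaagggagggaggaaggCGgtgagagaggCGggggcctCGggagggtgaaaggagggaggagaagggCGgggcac

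The EMP1 window had a GC content of 42.4% and 3 CG dinucleotides. The EMP2 window had 77.2% and 27, the EMP3 window 59.2% and 9 (59.2% and 4 at its second start), and that of LHFPL2 83.2% and 38. The 3 windows of PMP22, whose signal was not analysed here, had 48.8%, 61.2% and 69.6% and 1, 15 and 26 CG dinucleotides. Over 35116 RefSeq windows of the same length the median GC content was 58.0% and the median number of CG dinucleotides 11, and 17.8% of the windows had a GC content as low as that of EMP1. Few CG dinucleotides were common, as 29.3% of all windows held 3 or fewer, and the first PMP22 window held fewer than that of EMP1. The letters TTTAT, a core that homeodomain proteins of the posterior HOX groups can bind, were searched on both strands. They were not found in the windows of EMP1, EMP2 or LHFPL2 or at the second EMP3 start. The EMP3 window printed above held them once on each strand, the 2 matches overlapping, and the first PMP22 window held them once. Of all windows 32.7% held TTTAT. TAAT, the general homeodomain core, was found 2 times in the first PMP22 window, in no other window of these genes, and in 47.4% of all windows. These are matches of letters in short windows, and nothing about HOXD9 binding follows from them. LHFPL6 had no entry in the promoter table.

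EMP1 was read by 6 probe sets, and 5 of them were more than 2-fold lower after HOXD9 silencing. On its brightest probe set, 201324_at, the signal was 3172 in the control and 464 after silencing, or 14.6% of the control. This is a log2 ratio of HOXD9 siRNA-2 over control siRNA of -2.77. Probe set 201325_s_at went from 1128 to 113, a log2 ratio of -3.32. Both probe sets were well above the bacterial controls on both arrays. Probe set 229011_at gave 324 and 48.2 (log2 ratio -2.75), and 213895_at gave 239 and 33.9 (-2.82). Probe set 234233_s_at gave 64.3 and 12.7. As 12.7 lay within the signals of the bacterial controls, EMP1 was at least 3.50-fold lower on it, or at least 2.84-fold when both arrays were centered on their medians. Over the 5 probe sets the measured ratios ran from -3.32 to -2.34 on the log2 scale, with a median of -2.77 and an SD of 0.35 between probe sets. Probe sets read the same 2 RNA samples and are not replicates of the condition.

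The remaining EMP1 probe set, 1564796_at, differed from the others. Its signals were 55.8 and 51.5, a log2 ratio of -0.12, or 0.18 after centering, so its direction depends on the scaling. Both signals lay above the bacterial controls, at 2.80 times their highest value on the HOXD9 siRNA array. In the annotation this probe set stands for a GenBank record other than a RefSeq mRNA, as do 213895_at and 234233_s_at, whereas 201324_at and 201325_s_at stand for the RefSeq mRNA of EMP1. The sources used here do not place its probes on the transcript. With this probe set included, the SD between the 6 EMP1 probe sets was 1.14 and the mean log2 ratio -2.35.

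EMP2, which acts on integrins, focal adhesion kinase and caveolins at the cell surface, was read by 4 probe sets, none of them past 2-fold. The signal was 539 and 325 on 204975_at, 364 and 259 on 225079_at, and 315 and 281 on 225078_at, given for control siRNA first and HOXD9 siRNA-2 second. The log2 ratios of these 3 probe sets were -0.73, -0.49 and -0.17. The dimmest probe set, 238500_at, gave 24.8 and 15.2, the latter within the bacterial controls, and was at least 1.35-fold lower. Every EMP2 probe set read lower with the signals as deposited, but 225078_at stood at 0.13 after centering.

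EMP3, whose gene is often silenced by methylation in gliomas, had 1 probe set. Its signal was 1491 in the control and 1268 after silencing, a log2 ratio of -0.23. EMP3 thus differed little between the arrays, close to the median of all 11624 genes above the signal filter, -0.25. The filter asked for a mean signal over both arrays of at least 19.8, the median of all probe sets. Centering brought EMP3 to 0.07 and the median of all genes to 0.05.

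**Figure D1:**
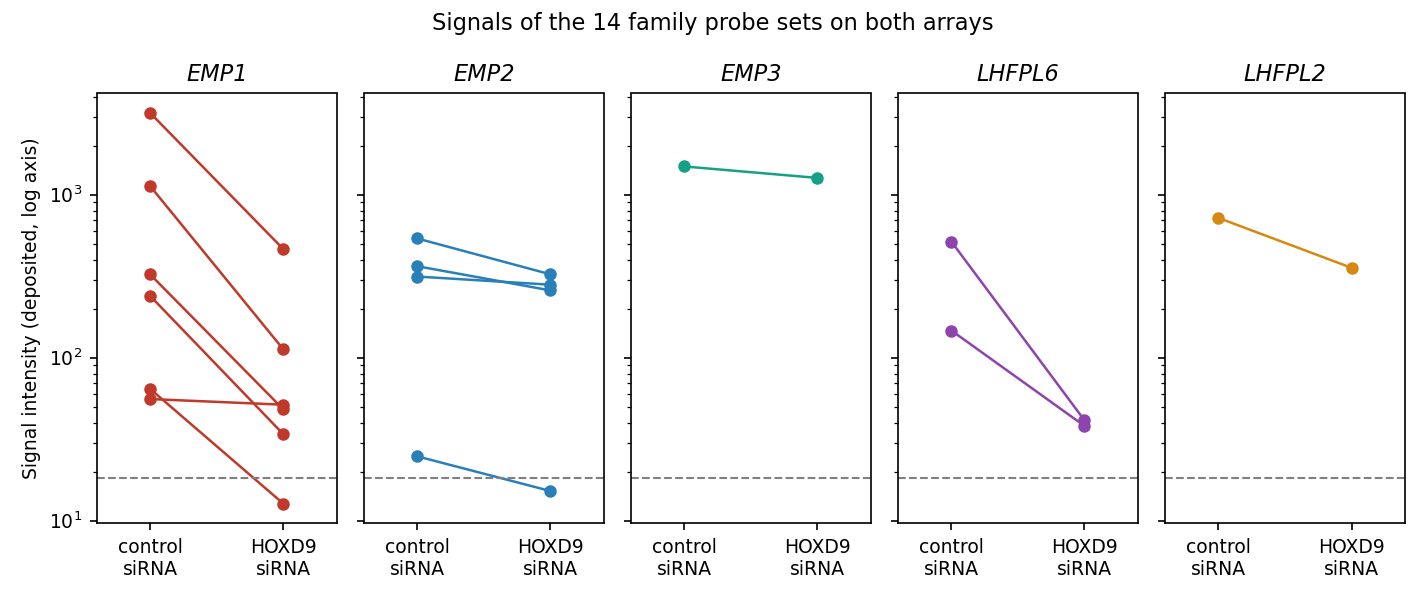
Signal intensity (y axis, log scale) of each of the 14 family probe sets on the control siRNA array and the HOXD9 siRNA array (x axis), with a line joining both values of a probe set and 1 panel per gene. The dashed line is the highest bacterial control signal, 18.4. All EMP1 lines but 1 and both LHFPL6 lines drop steeply, whereas those of EMP2 and EMP3 slope gently.

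LHFPL6, the LHFPL gene first found fused to HMGA2 in a lipoma, had the lowest ratio of the family. Its signal was 515 and 41.3 on 218656_s_at, or 8.02% of the control, a log2 ratio of -3.64. On 231411_at it was 147 and 38.2, or 26.0% of the control, a log2 ratio of -1.94. Both probe sets were more than 2-fold lower under every scaling tried, but they differed from each other by more than 1 on the log2 scale. With HOXD9 siRNA-2 the signals on both were low, at 2.25 and 2.08 times the highest bacterial control. LHFPL2, linked to the development of the reproductive tract, gave 721 and 356 on its only probe set. Its log2 ratio of -1.02 lay at the threshold, and after centering it was -0.72, short of 2-fold. LHFPL1, LHFPL3, LHFPL4 and LHFPL5 had probe sets with signals of at most 11.8 in the control and 10.8 after silencing. All were under 18.4, the highest bacterial control of both arrays, although the 11.8 of LHFPL3 was just over the 11.4 of the control array.

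Of the 14 family probe sets, all above the signal filter, 8 were more than 2-fold lower and 0 were more than 2-fold higher. Over all 27307 probe sets above the filter, 6.69% were more than 2-fold lower and 0.615% more than 2-fold higher. EMP1 and LHFPL6, chosen for these ratios, account for 7 of the 8, and nothing is read from their count. Among the 6 probe sets of EMP2, EMP3 and LHFPL2 the count was 1, that of LHFPL2. After centering, by quantile normalization and by loess, 7 of the 14 were more than 2-fold lower and none was higher by as much, against 2.94% and 1.51% of all probe sets after centering, and none of those 7 belonged to EMP2, EMP3 or LHFPL2.

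**Figure D2:**
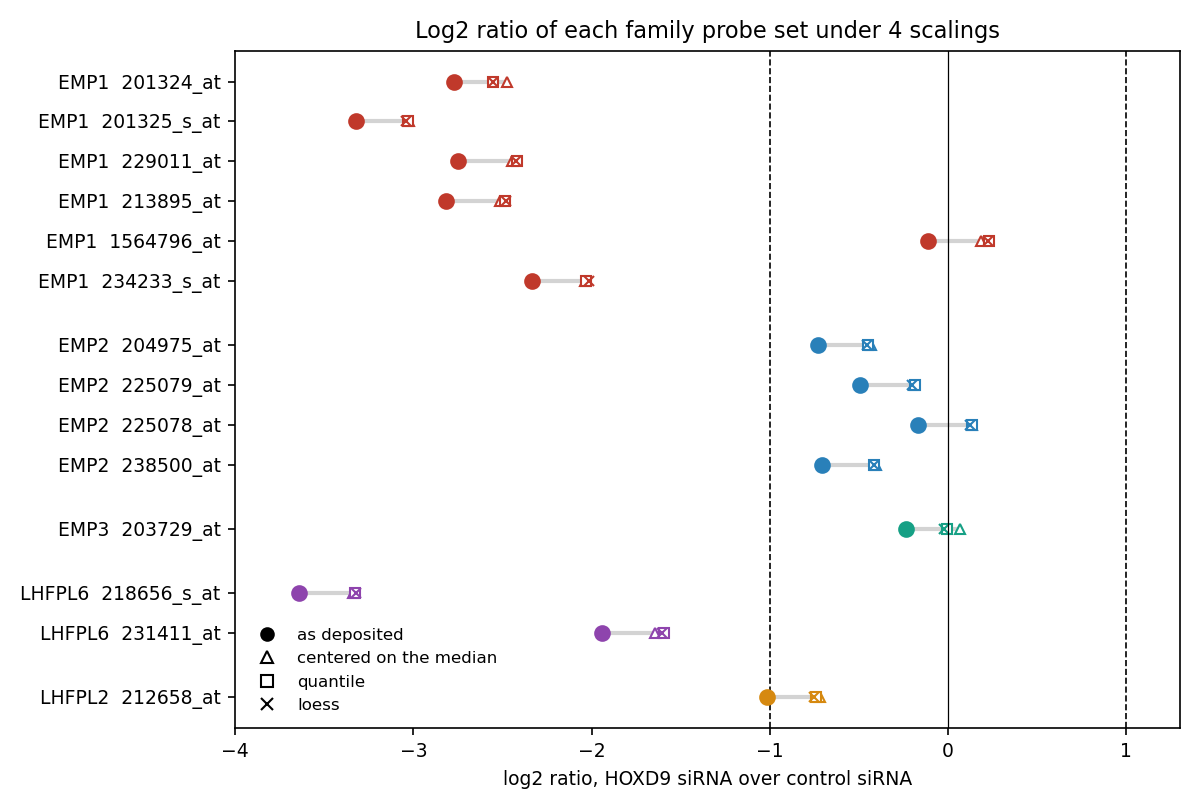
Log2 ratio of silenced over control cells (x axis) of each family probe set (y axis, brightest first within a gene) as deposited (filled circles) and under 3 other scalings (open symbols and crosses). Dashed lines mark 2-fold. The scalings move each value to the right by 0.21 to 0.35 and carry LHFPL2 across the line at -1, whereas 5 EMP1 and both LHFPL6 probe sets stay beyond it.

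Compared with its paralogs, EMP1 had a difference in log2 ratio of -2.04 to EMP2 and of -2.54 to EMP3 on the brightest probe sets. These differences equal 4.12-fold and 5.81-fold, and a factor common to a whole array cancels in them. The difference of LHFPL6 to LHFPL2 was -2.62, or 6.17-fold. That of EMP2 to EMP3 was -0.50 and that of LHFPL2 to EMP3 -0.78. For scale, probe sets that read the same gene scattered with an SD of 0.41 in log2 ratio, pooled over 6081 genes. On the brightest probe sets the order from the lowest log2 ratio was LHFPL6, EMP1, LHFPL2, EMP2 and EMP3. In it LHFPL2 and EMP2 were closer to each other than the pooled SD. The order of LHFPL6 and EMP1 depended on the probe sets used, as the medians over their probe sets were -2.79 and -2.76. Without _x_at and _s_at probe sets LHFPL6 stood at -1.94 and EMP1 at -2.77. No test of the differences between these genes is possible with 1 array per condition. Differences that involve EMP1 or LHFPL6 are descriptions, because both genes were chosen for their falls on these arrays.

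Among the 11624 genes above the signal filter, each taken by its brightest probe set, 6 had a lower log2 ratio than LHFPL6 and 20 a lower one than EMP1. LHFPL2 had 546 genes below it, EMP2 1318 and EMP3 6107. By this measure 3 of the 5 family genes were more than 2-fold lower and none was more than 2-fold higher, beside 4.95% and 0.516% of all genes. After centering it was 2 of 5, EMP1 and LHFPL6, and again none higher, beside 2.22% and 1.24%. Only 209 genes had 6 or more probe sets above the filter, and EMP1 was the single one of them with 5 or more past 2-fold lower. Over genes with at least 2 such probe sets, RAB27A, named here after its value was seen, was the other gene with 5 or more. Of 6081 genes with at least 2, LHFPL6 was the single other gene whose median over its probe sets was as low as that of EMP1. As EMP1 and LHFPL6 were chosen for their falls on these arrays, nothing is read from their ranks or counts.

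Genes with a pattern like that of EMP1 were sought among the 818 non-family genes whose brightest probe set had a control siRNA signal within 2-fold of that of EMP1. None of them had a log2 ratio as low, 8 were more than 2-fold lower, and their median was -0.17. The nearest was PGAM1, an enzyme of glycolysis, with signals of 5912 and 1583 and a log2 ratio of -1.90 on 1 probe set. SDCBP, the adaptor syntenin that binds syndecans, followed at -1.37, then BTG3 (-1.24), MCL1 (-1.15) and BZW1 (-1.09). After centering BTG3, MCL1 and BZW1 were short of 2-fold, BTG3 at -0.94 and BZW1 at -0.79. As deposited, 2 of the 4 probe sets of BTG3 above the filter were more than 2-fold lower, 1 of 5 of MCL1 and 1 of 2 of BZW1. EMP1 lay 0.87 lower on the log2 scale than PGAM1. For LHFPL6, 3762 genes were within 2-fold of its control signal and none was as low. The nearest were DIAPH3 (-2.73), PM20D2 (-2.72), NEMP1 (-2.52), PAQR3 (-2.37) and NHLRC3 (-2.24). Likeness here rests on 2 arrays and a single ratio per gene. As EMP1 and LHFPL6 were chosen for their falls on these arrays, nothing is read from the absence of genes as low or from the gap to the nearest gene.

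NHLRC3 is also the first gene on the side of lower coordinates from LHFPL6 on chromosome 13 that had a probe set above the filter. On its 3 probe sets the log2 ratios ran from -2.24 to -0.87, and the brightest gave signals of 384 and 81.6. The next such genes on that side, PROSER1 and UFM1, had log2 ratios of -0.42 and -0.28. On the other side COG6, FOXO1 and MRPS31 had -0.30, -0.13 and 0.03. Of the 6 neighbors of LHFPL6, NHLRC3 was thus the single one past 2-fold. Around EMP1 on chromosome 12, FAM234B and HEBP1 had -0.18 and -0.14, and HTR7P1, a pseudogene between them, had signals of 88.8 and 36.2 and a log2 ratio of -1.29, or -0.99 after centering. ATF7IP, H2AJ and WBP11 on the far side had -0.53, -0.84 and -0.56. H2AJ was dim, at 35.4 and 19.8, and its other probe set above the filter gave -1.20. Neighbors were ordered by the RefSeq gene table of GRCh38.p14, passing over genes without a probe set above the filter. They need not be adjacent, as up to 24 genes lay between them and EMP1 and up to 21 between them and LHFPL6.

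Above the signal filter, the log2 ratios of the wider superfamily lay closer to 0 than that of EMP1. This is a description only, because EMP1 was chosen for its fall on these arrays. Of 48 other genes with the PMP22 and claudin fold, 43 had a named probe set and 14 passed the signal filter. Their median log2 ratio was -0.46, beside -0.25 for all genes, or -0.16 and 0.05 after centering, and 12 of the 14 lay below the median of all genes. More than 2-fold lower were 2 of the 14, beside 4.95% of all genes, and none was more than 2-fold higher. CACNG4, a gamma subunit of calcium channels that also escorts AMPA receptors, went from 77.6 to 29.7, a log2 ratio of -1.39 that stayed past 2-fold after centering, at -1.09. CLDN19, a claudin of kidney tight junctions, had a measured ratio of -1.16 on the brighter of its 2 probe sets above the filter. Its signal of 15.0 there with HOXD9 siRNA-2 lay within the bacterial controls, so it was at least 1.83-fold lower, or 1.48-fold after centering. The dimmer one gave 31.9 and 11.9, a measured ratio of -1.42, with the latter signal also within the bacterial controls. TMEM204 likewise gave 32.0 and 17.8, at least 1.74-fold lower (1.41-fold after centering). CLDN12 was the highest, with 190 and 265 and a log2 ratio of 0.48.

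Among the claudins, which seal tight junctions, 5 of 20 with a probe set passed the filter, and among the CACNG genes 4 of 8. PERP, a p53 target of desmosomes, had 1412 and 1112, a log2 ratio of -0.34, with its 3 probe sets from -0.58 to 0.57. CLDND1 had -0.32 and TMEM47, a junction protein, 0.13. By brightest probe set the -1.39 of CACNG4 was the lowest of the 14.

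The tetraspanins, which organize membrane microdomains, gave a median log2 ratio of -0.13 over 19 of 32 genes above the filter (0.17 after centering). TSPAN14, a regulator of the protease ADAM10, was the 1 of the 19 more than 2-fold lower, beside 4.95% of all genes, with signals of 119 and 52.1 and log2 ratios of -1.19 and -0.84 (2 probe sets), and it was short of 2-fold after centering at -0.89. TSPAN10 had -0.54 and CD81 -0.34. CD82, a suppressor of metastasis, had the highest value, 0.59 on its brighter probe set against -0.52 on the other. The 2 probe sets of CD82 thus disagree in sign.

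Proteins known to bind EMP or PMP22 proteins, or to act with them, gave no gene past 2-fold among 14 above the filter, where 4.95% of all genes were more than 2-fold lower and 0.516% more than 2-fold higher. A list of 14 is too short to read anything from that count. Their median log2 ratio was -0.30 (0.00 after centering), and the range was -0.78 to -0.03. P2RX7, an ATP-gated channel that binds EMP proteins, had the lowest value with 92.3 and 53.9, a log2 ratio of -0.78. TJP1, the tight junction scaffold ZO-1, gave 1376 and 851 (-0.69), with -0.62 on its other probe set, and ITGB3, an integrin subunit controlled by EMP2, gave 372 and 231 (-0.69), although its 6 probe sets above the filter ran from -0.69 to 0.59. CAV1, the caveolin of plasma membrane caveolae, stood at -0.21 with 6176 and 5357, and VEGFA had the highest value, -0.03. ITGA6, ITGB4 and OCLN were below the filter. Of 7 myelin and Schwann cell genes with a probe set, CNP (-0.25) and MOG (-0.41) passed the filter, and SOX10, MBP, MAG, GJB1 and PRX did not. The dimmer CNP probe set above the filter gave 25.4 and 44.1, a log2 ratio of 0.80, or 1.10 after centering. Its sign is thus opposite to that of the brighter one. MOG was dim, at 25.9 and 19.6.

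**Figure D3:**
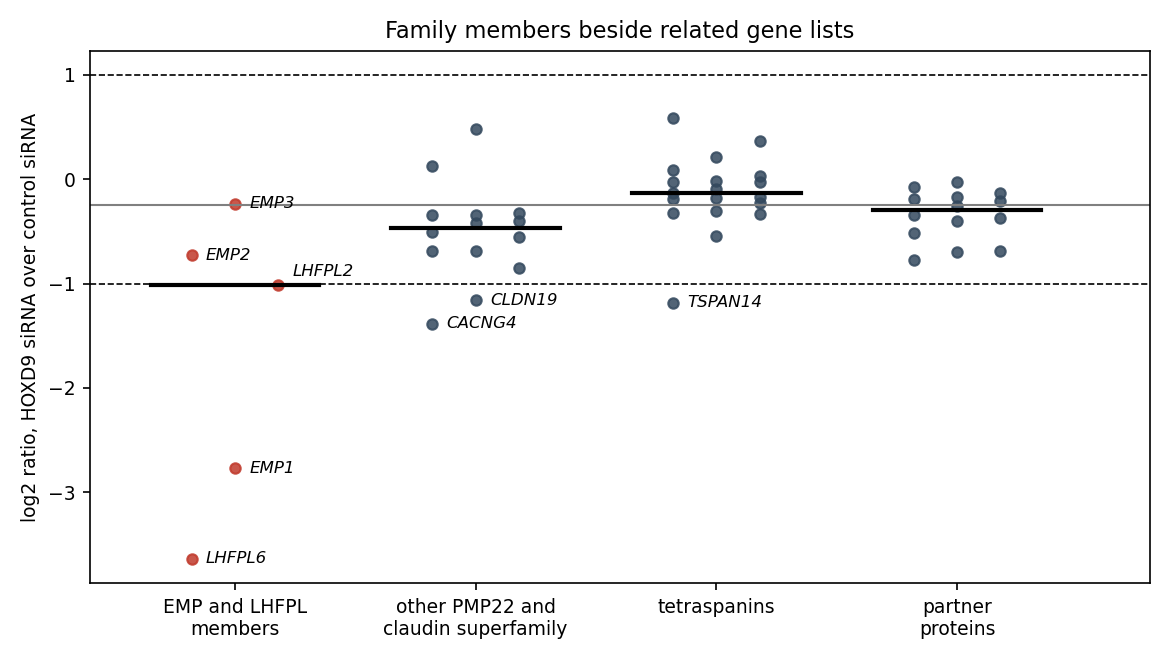
Log2 ratio of silenced over control cells (y axis) of each gene above the signal filter in the family and in 3 related lists (x axis). Thick black bars mark list medians, the gray line the median of all genes (-0.25) and dashed lines 2-fold. EMP1 and LHFPL6 were chosen for their falls on these arrays, so nothing is read from their distance to the other lists. By brightest probe set the lowest gene of those lists is CACNG4 at -1.39.

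Of 6 markers of mesenchymal glioma lines 5 passed the filter, all but THY1, with VIM at 11349 and 10823. Of 5 epithelial markers EPCAM alone passed, at 28.2 and 23.8, with a summed signal of 44.2 and 44.5 over the 5, and of 4 leukocyte markers with a probe set none did, and the summed signal of those 4 was 33.8 and 35.8. Of 5 neuronal markers 3 passed, with a summed signal of 817 and 565 over the 5, and these were SYT1 at 91.8 and 30.3 (log2 ratio -1.60), SNAP25 at 549 and 379 (-0.53) and GAD1 at 155 and 146 (-0.09, or 0.21 after centering). Of 4 endothelial markers PECAM1 and TEK passed, with a summed signal of 109 and 59.8, and TEK, at 51.6 and 15.2, was at least 2.81-fold lower, while PECAM1 gave 43.4 and 40.3 (-0.11, or 0.19 after centering). The part of these markers in the low EMP1 and LHFPL6 values was not tested.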

How the data were processed

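The authors deposited 1 linear signal intensity for each probe set of the Affymetrix U133 Plus 2.0 array, from 1 control siRNA and 1 HOXD9 siRNA hybridization. The submitters' processing notes name GCOS, and the paper's methods name GeneSpring; settings, scaling and detection calls were not given in the sources used here. An unequal scaling target shifts all log2 ratios alike: the medians were 22.5 and 18.3. Labels and methods differ on seeding, 48 h and 24 h before transfection.

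Log2 ratios of HOXD9 siRNA over control siRNA were taken over 54613 probe sets, without 62 control probe sets. Symbols came from the platform annotation (41091 probe sets with 1 gene, 1801 with several, 11721 not listed), updated by Entrez number in RefSeq's GRCh38.p14 table (41037 matched). The signal filter kept probe sets whose mean signal reached the median, 19.8. Genes were represented by the brightest kept probe set, and the threshold was the study's, more than 2-fold. A signal at or under 18.4, the highest of 27 Bacillus subtilis probe sets, was taken as background, and the fold is then given as a bound; whether they were added is not known here. Centering, quantile normalization, loess (fraction 0.3), no filter, a filter at the 70th percentile (75.7), raising signals to the 20th percentile of the array, leaving out _x_at and _s_at probe sets, and the mean over probe sets were tried; the filter always read the deposited signals.

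Named genes are the family, HOXD9, GAPDH, from each other list the highest, the 3 lowest and all past 2-fold, the 5 genes nearest in ratio at like control signal, and 3 neighbors on each side; other genes were named after their values were seen. The members and lists were chosen with earlier results of these data known. Depth does not apply to arrays: their number limits the precision, and no test was run. The code was tested on simulated data. Promoter windows are from RefSeq. Python 3.11.15, numpy 2.4.6, pandas 2.3.3, statsmodels 0.14.6 and matplotlib 3.10.9 were used.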

Additional observations from a re-analysis of the deposited data

How the results depend on the processing

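Of 166 values recomputed under 8 alternatives, 138 moved by less than the SD between probe sets of a gene (0.41, scaled to the list size for medians; counts within 1.5 times), 28 moved more, and 0 reversed a value past 2-fold. EMP1 and LHFPL6 stayed past 2-fold under all 8, and EMP2 and EMP3 stayed short of it. LHFPL2 was short of it at -0.72 after centering, -0.74 by quantile normalization and -0.75 by loess. Without _x_at and _s_at probe sets LHFPL6 stood at -1.94 and 5 family probe sets were more than 2-fold lower. With the mean over probe sets EMP1 stood at -2.35, LHFPL6 at -2.79 and EMP1 minus EMP3 at -2.12.

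The median of the superfamily list was -0.16 after centering, -0.15 by quantile normalization and -0.16 by loess, and 1 of its genes was then more than 2-fold lower. That of the tetraspanins was 0.17, 0.16 and 0.14, with 0 genes lower, and that of the partner list 0.00192, -0.12 and -0.13, in the same order. Without a signal filter 12 superfamily genes were more than 2-fold lower and 4 higher, 5 tetraspanins lower and 1 higher, and 3 myelin genes lower, because genes within the background then enter. With the filter at the 70th percentile 0 superfamily genes were lower. Without _x_at and _s_at probe sets 1 partner gene, CANX, was lower and the myelin median was 0.80, the value of CNP alone. No paired analysis was possible because each condition has 1 array. The scaling that brings the 2 arrays to their true levels cannot be known from 2 arrays, and the noise of a single ratio was not measured.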
